A study of Arabidopsis thaliana with 33 samples.

Results

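The transcriptomes of Arabidopsis shoots were compared between plants held at 50 kPa with added oxygen that kept its partial pressure at 21 kPa (the 50 kPa/NormOx group, 4 arrays) and plants held at the control pressure of 97 kPa (3 arrays). Members were taken by the atmosphere and organ named in the sample titles, which gave 7 of the 33 arrays of the study. The whole set holds 18 shoot arrays and 15 root arrays in 6 atmospheres. The question this comparison addresses is what a moderate drop in pressure does to shoot gene expression when the supply of oxygen is kept normal.

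All plants were of the Wassilewskija (WS) ecotype, grown on nutrient medium in Petri plates under constant light, and 10 days old when they went into a low pressure growth chamber for 24 h. CO2 was kept at 0.05 kPa in every atmosphere, and where oxygen was set, nitrogen made up the rest. The 50 kPa/NormOx group thus had a reduced total pressure with the oxygen partial pressure of ordinary air. Each treatment had 3 chambers of 10 plates with about 12 plants a plate, plants of 1 plate were pooled in a tube, and 1 tube per chamber was used. Which parts of the plant the shoot samples held, and how they were cut from the roots, is not stated. The methods thus give 3 tubes per treatment, and the chamber from which each of the 4 arrays at 50 kPa/NormOx came is not stated. If 2 arrays share a tube or a chamber, the spread among them is partly technical, and the p-values measure the spread between arrays only. In such bulk samples fewer cells of a type and less RNA per cell cannot be told apart.

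In a hypobaric atmosphere the partial pressure of every gas falls with the total, so that low pressure alone brings low oxygen unless oxygen is added back. Gases and water vapour also diffuse faster in thin air, which speeds the loss of water through stomata even in a humid plate. Shoots are known to answer low oxygen with fermentation genes such as ADH1, and water deficit with abscisic acid and dehydrin genes, while many calcium, redox and cell wall genes answer mechanical and water-related cues more widely.

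Values are log2 signals of the ATH1 array after Robust Multi-chip Average (RMA) normalization. A change is given as the Log2 fold-change, the mean at 50 kPa/NormOx minus the mean at 97 kPa. The threshold of the study was used to call a gene changed: limma had to give p under 0.01 before adjustment, and the Log2 fold-change had to reach 1 in either direction. Verbs of rise and fall are kept for genes past it. Log2 fold-changes are given ± the standard error (SE), which with the p-values comes from 1 limma fit of all 18 shoot arrays, and adjusted p-values are by Benjamini-Hochberg over all 22645 probe sets tested.

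The organ labels were borne out by the markers. The median signal of 8 nuclear photosynthesis probe sets lay between 11.27 and 11.73 in the 18 shoot arrays and between 5.84 and 6.94 in the root arrays. 1 of the 7 arrays stood apart. Replicate 1 at 50 kPa/NormOx had a mean Pearson correlation of 0.898 with the other shoot arrays, against 0.974 to 0.983 for the other 17. In that array 3958 probe sets (17.5%) lay more than 1 log2 unit from the median of the other shoot arrays, against 20 to 336 elsewhere. The array it correlated with best was replicate 1 at 97 kPa (0.938). The root hair expansins EXPA7 and EXPA18 read 7.11 and 6.71 in it, against 4.24 to 5.50 and 4.03 to 5.56 in the other shoot arrays, while the root beta-glucosidase PYK10 (8.90) and the root peroxidase AT4G26010 (4.13) were within their range. Over the 4 root markers measured, its median was 6.91, against 4.14 to 5.48 in the other shoot arrays and 7.36 to 8.78 in roots. Over 96 probe sets that are at least 4 log2 units brighter in roots than in shoots, its median was 4.65, against 4.35 to 4.56 in the other shoot arrays and 9.42 to 9.78 in roots. The part of root tissue in the results was not tested. Results are given with all 7 arrays, and the main ones again without this array.

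**Figure D1:**
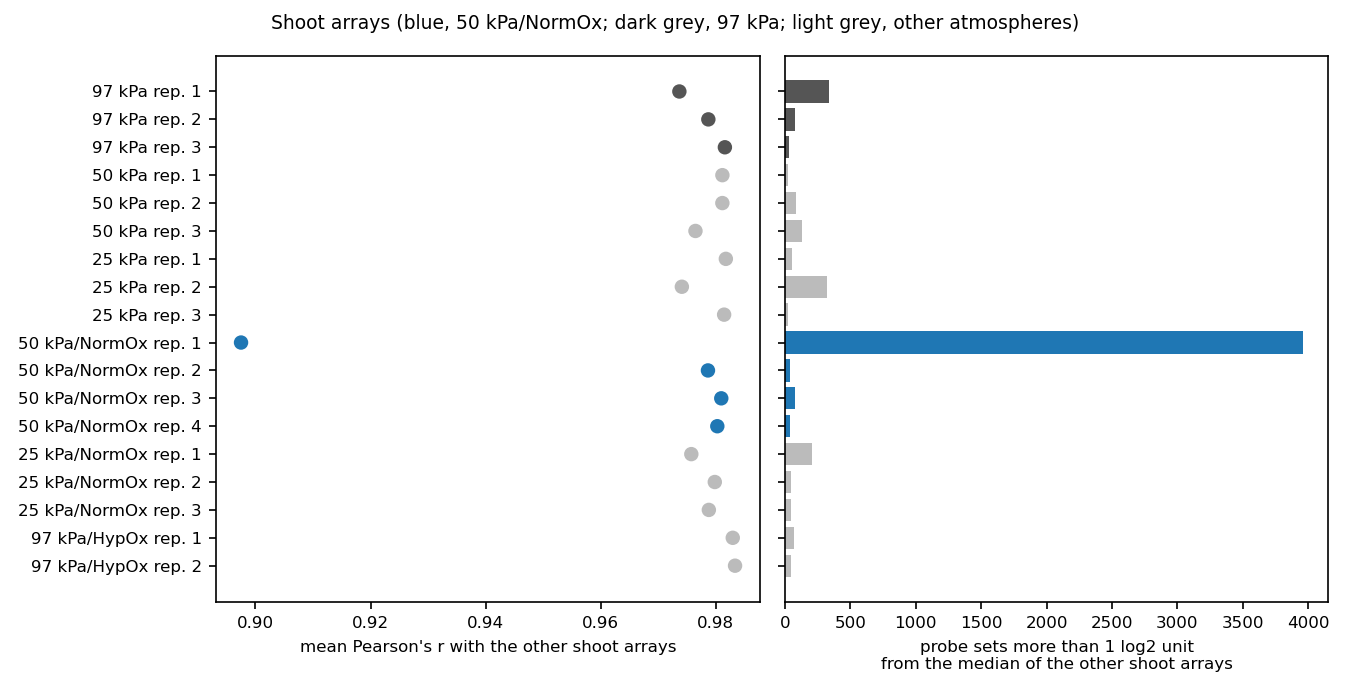
The 18 shoot arrays, 1 row each. The left panel plots the mean Pearson correlation with the other 17 arrays, the right panel the number of probe sets more than 1 log2 unit from the median of the other arrays; blue marks 50 kPa/NormOx, dark grey 97 kPa and light grey the other atmospheres. Replicate 1 at 50 kPa/NormOx sits at 0.898 and 3958 probe sets, apart from all the others.

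Few genes passed the threshold. With all 7 arrays 11 of 22645 probe sets did (0.0486%), 8 higher (0.0353%) and 3 lower (0.0132%) at 50 kPa/NormOx. Cyclic loess between arrays gave 13, with 11 higher and 2 lower, while array weights turned the balance, with 6 higher and 10 lower. By limma 0 passed an adjusted p under 0.05, where array weights gave 2, and 1334 (5.89%) had an unadjusted p under 0.05, 578 higher (2.55%) and 756 lower (3.34%). Without replicate 1 there were 17 past the threshold (0.0751%), 13 higher (0.0574%) and 4 lower (0.0177%). By limma 0 then had an adjusted p under 0.05 and 2188 (9.66%) an unadjusted p under 0.05, 1177 higher (5.2%) and 1011 lower (4.46%). Of the 11 and the 17, 5 probe sets were the same, 45.5% of the former list and 29.4% of the latter. The smallest adjusted p was 0.0863 with 7 arrays and 0.151 without replicate 1, both for the same probe set, which is listed for several genes and was chosen after its values were seen. It read 7.46, 7.06 and 7.56 at 97 kPa and 6.65, 6.49, 6.34 and 6.57 at 50 kPa/NormOx, a Log2 fold-change of -0.84, and the groups did not overlap. Over all probe sets the groups did not overlap in 1042 (4.6%) with 7 arrays and in 2796 (12.3%) without replicate 1.

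Which arrays were used moved the count widely. Leaving out 1 array at a time gave between 4 and 21 probe sets past the threshold. Without 97 kPa replicate 1 there were 4, without 97 kPa replicate 2 there were 7, none of them higher, and without 97 kPa replicate 3 there were 21, of which 20 were higher. More were lower than higher without 50 kPa/NormOx replicate 2 (5 higher, 7 lower) or 4 (2 higher, 8 lower). Each of the 8 rises was thus lost without 97 kPa replicate 2.

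Among the genes with an annotated name, 4 rose and 1 fell with all 7 arrays. AT5G18600 encodes a class III glutaredoxin, a small enzyme of a plant-specific family that uses glutathione to reduce or modify protein thiols. It read 5.46, 4.91 and 5.33 at 97 kPa and 6.04, 7.30, 6.38 and 6.80 at 50 kPa/NormOx. The groups did not overlap and even replicate 1, the lowest of the 4, was above all controls. The Log2 fold-change was 1.39 ± 0.38 (SE, n = 3 and 4 arrays), a 2.62-fold rise with adjusted p = 0.485 by limma. Without replicate 1 it was 1.59 ± 0.38 (adjusted p = 0.246). Of 15 alternative settings the gene stayed past the threshold in 13, the most of the 5 genes, and the call was lost without 97 kPa replicate 2 (Log2 fold-change 1.23) and with the replicate number as a block.

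AT4G27280 encodes a calcium-binding EF-hand protein, a class that couples calcium signals to their targets. It read 7.91, 8.22 and 9.22 at 97 kPa and 9.88, 9.95, 10.11 and 9.98 at 50 kPa/NormOx. The 4 treated arrays lay within a narrow band above all controls, whereas the controls spread widely with replicate 3 the highest. The Log2 fold-change was 1.53 ± 0.49 (SE), a 2.89-fold rise (adjusted p = 0.56), and 1.57 ± 0.52 (adjusted p = 0.366) without replicate 1. The gene stayed past the threshold in 9 of the 15 settings. The call was lost without 97 kPa replicate 1 (Log2 fold-change 1.26) or 2 (1.42), and also without any of 50 kPa/NormOx replicates 2 (1.54), 3 (1.49) or 4 (1.53), and with array weights.

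AT1G23130 belongs to the Bet v I and major latex protein family, small proteins with a ligand-binding pocket. It read 7.35, 6.59 and 7.94 at 97 kPa and 8.62, 8.28, 8.66 and 8.70 at 50 kPa/NormOx, a Log2 fold-change of 1.27 ± 0.42 (adjusted p = 0.595). AT2G20670, of the DUF506 family, read 5.48, 5.05 and 6.36 at 97 kPa and 7.26, 7.45, 6.14 and 7.23 at 50 kPa/NormOx, a Log2 fold-change of 1.39 ± 0.43 (adjusted p = 0.544). For AT1G23130 the groups did not overlap, and for AT2G20670 treated replicate 3 fell below the highest control. Without replicate 1 both missed the threshold, with similar fold changes: 1.25 ± 0.45 (adjusted p = 0.402) for AT1G23130 and 1.31 ± 0.46 (adjusted p = 0.381) for AT2G20670. In both genes, as in AT4G27280, 97 kPa replicate 3 was the highest control. Leaving out 97 kPa replicate 1 or 2 also ended both calls, with Log2 fold-changes of 1.3 and 0.92 for AT1G23130 and of 1.32 and 1.1 for AT2G20670. Among the treated arrays, AT1G23130 missed the threshold without replicate 2 (1.36), 3 (1.24) or 4 (1.22), and AT2G20670 without replicate 2 (1.25) or 4 (1.32).

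AT1G54020, of the GDSL family of esterases and lipases, was the named gene that fell. It read 7.57, 7.70 and 7.76 at 97 kPa and 4.93, 7.09, 6.75 and 6.68 at 50 kPa/NormOx. All 4 treated arrays were below all controls, but replicate 1 was far below the other 3. The Log2 fold-change was -1.31 ± 0.43 (SE), 2.49-fold lower (adjusted p = 0.58), and -0.84 ± 0.29 (adjusted p = 0.372) without replicate 1. The call was also lost without any 1 of the 3 control arrays, with Log2 fold-changes of -1.37, -1.30 and -1.27. Of the 5 named genes, AT5G18600 alone kept its call with array weights, and AT4G27280 alone with the replicate block.

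Without replicate 1 the list of changed genes was partly another one. Of the 8 named genes that rose and the 2 that fell with 3 treated arrays, AT5G18600 and AT4G27280 were also past the threshold with 4. NDA1 encodes an internal alternative NAD(P)H dehydrogenase of mitochondria, which feeds electrons to the respiratory chain past complex I. It read 5.28, 5.00 and 5.16 at 97 kPa and 6.50, 6.37 and 6.01 in treated replicates 2 to 4, but 4.67 in replicate 1. The Log2 fold-change was 1.15 ± 0.19 (SE, adjusted p = 0.186) without replicate 1 and 0.74 ± 0.33 (adjusted p = 0.814) with it.

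The glycosyltransferase gene AT2G41640, of a family that builds cell wall xylans and N-glycans, read 4.42, 4.25 and 4.57 at 97 kPa and 5.03, 5.45, 5.65 and 5.46 at 50 kPa/NormOx. PP2-A1, a lectin of phloem sap, read 7.02, 6.41 and 7.19 at 97 kPa and 7.52, 7.70, 8.15 and 7.99 at 50 kPa/NormOx. In both genes the groups did not overlap, replicate 1 was the lowest treated array, and the fold change moved little with it. The Log2 fold-change of AT2G41640 was 0.98 ± 0.27 (SE, adjusted p = 0.483) with all arrays, just short of the fold threshold, and 1.11 ± 0.27 (adjusted p = 0.262) without replicate 1. That of PP2-A1 was 0.97 ± 0.30 (adjusted p = 0.555) and 1.07 ± 0.32 (adjusted p = 0.307).

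The rise of 3 other genes rested on leaving out replicate 1. AT1G72900 and AT1G72920 encode TIR-NBS proteins, of the class of intracellular immune receptors, and AT1G04770 a tetratricopeptide repeat protein related to sulphur deficiency-induced genes. AT1G72920 read 4.89, 5.17 and 5.62 at 97 kPa and 7.17, 6.81 and 6.82 in treated replicates 2 to 4, but 4.72 in replicate 1. AT1G04770 read 6.26, 7.23 and 7.0 at 97 kPa and 7.87, 8.16 and 7.79 in treated replicates 2 to 4, but 5.43 in replicate 1. AT1G72900 read 5.09, 5.15 and 5.87 at 97 kPa and 5.57, 6.56, 6.27 and 7.23 at 50 kPa/NormOx. In the first 2 of these, as in NDA1, replicate 1 lay below all controls while its 3 fellow arrays lay above all of them. Without replicate 1 their Log2 fold-changes were 1.70 ± 0.53 (SE, adjusted p = 0.331), 1.11 ± 0.25 (adjusted p = 0.244) and 1.31 ± 0.42 (adjusted p = 0.341), and with it 1.15 ± 0.62 (adjusted p = 0.926), 0.48 ± 0.50 (adjusted p = 0.999) and 1.04 ± 0.43 (adjusted p = 0.77).

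The 2 named genes that fell without replicate 1 encode small secreted proteins. THI2.1, an antimicrobial thionin induced by jasmonate, read 9.39, 8.40 and 9.03 at 97 kPa and 8.27, 8.10, 7.81 and 7.35 at 50 kPa/NormOx. AT5G55450, a lipid transfer family protein, read 10.60, 9.58 and 10.02 at 97 kPa and 9.58, 9.33, 8.12 and 9.49 at 50 kPa/NormOx. In neither gene did the groups overlap, but in AT5G55450 the highest treated and the lowest control array both round to 9.58. The Log2 fold-change of THI2.1 was -1.18 ± 0.38 (SE, adjusted p = 0.348) without replicate 1 and -1.05 ± 0.37 (adjusted p = 0.638) with it. That of AT5G55450 was -1.09 ± 0.35 (adjusted p = 0.348) and -0.94 ± 0.34 (adjusted p = 0.664).

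Over the 13 named genes past the threshold in either fit, 10 higher and 3 lower, replicate 1 lay outside the range of the other 3 treated arrays in 11. It lay beyond all controls in the direction of the change in 9, and beyond them on the opposite side in 3. In AT2G20670, counted in the 9, treated replicate 3 did not lie beyond all controls. Genes past the threshold with all arrays were chosen with replicate 1 in the fit. Its side in those genes was thus partly fixed by the choice.

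**Figure D2:**
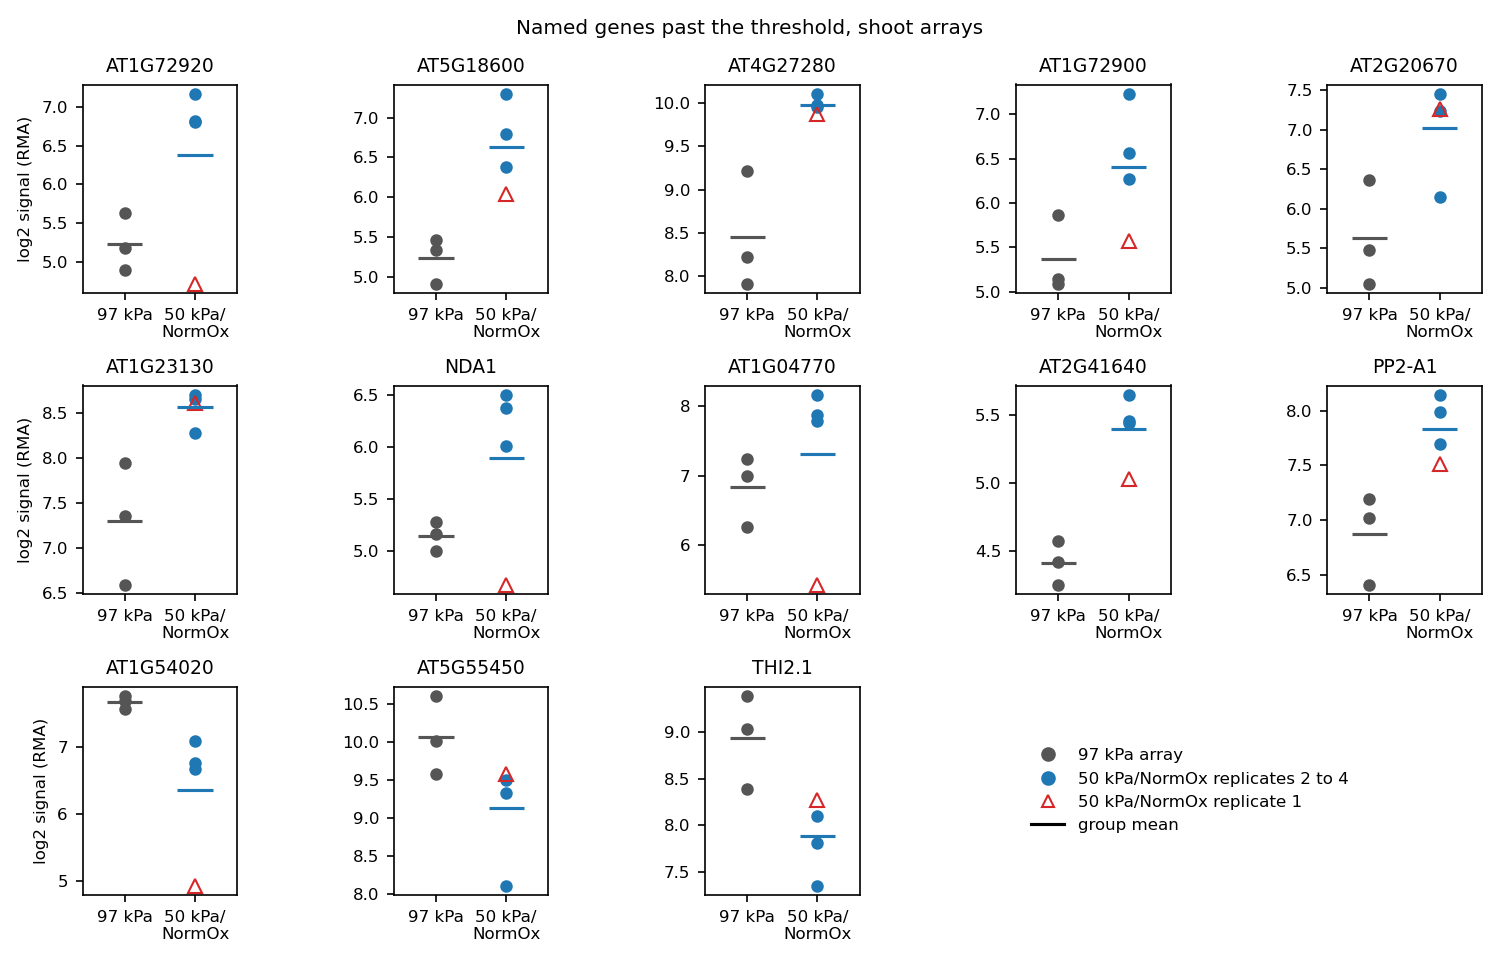
Log2 RMA signal of the 13 named genes past the threshold with or without replicate 1, 1 panel each with its own axis. Grey circles are the 3 arrays at 97 kPa, blue circles 50 kPa/NormOx replicates 2 to 4, red triangles replicate 1 and bars the group means over all arrays. In AT1G72920, NDA1 and AT1G04770 the triangle (4.72, 4.67 and 5.43) lies below all controls.

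Past the threshold there were also 6 probe sets with no single gene name when all arrays were used and 7 without replicate 1. The first of 2 such probe sets, which have no name here, read 5.53, 4.86 and 5.43 at 97 kPa and 6.26, 7.05, 6.85 and 6.75 at 50 kPa/NormOx. The second read 5.78, 5.11 and 5.98 at 97 kPa and 5.98, 6.76, 6.83 and 7.71 at 50 kPa/NormOx. Both rose in both fits, with Log2 fold-changes of 1.45 (adjusted p = 0.473) and 1.20 (adjusted p = 0.535) with all arrays and of 1.61 and 1.48 without replicate 1.

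The lowest p-values among named genes belonged to shifts that did not reach the fold threshold. GUN5, the H subunit of magnesium chelatase at the entry to chlorophyll synthesis, read 10.55, 10.41 and 10.43 at 97 kPa and 11.08, 10.90, 11.23 and 10.95 at 50 kPa/NormOx. Its groups were apart by more than their own spread and replicate 1 lay within the range of the other treated arrays. The Log2 fold-change was 0.58 ± 0.09 (SE, adjusted p = 0.138), the lowest p of any named gene, and 0.56 ± 0.10 without replicate 1. AT1G56190, a phosphoglycerate kinase of the pathway shared by glycolysis and carbon fixation, read 9.10, 9.29 and 9.43 at 97 kPa and 9.90, 9.78, 9.88 and 9.69 at 50 kPa/NormOx, a Log2 fold-change of 0.54 ± 0.11 (adjusted p = 0.337) and of 0.51 without replicate 1. The early light-induced protein ELIP2, which binds free chlorophyll under excess light, read 5.35, 5.83 and 5.52 at 97 kPa and 6.49, 6.30, 6.15 and 6.02 at 50 kPa/NormOx, a Log2 fold-change of 0.67 ± 0.14 (adjusted p = 0.337) and of 0.59 without replicate 1. Neither pair of groups overlapped.

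Another gene with a low p-value and higher signal was AT1G56050, which encodes a GTP-binding protein (Log2 fold-change 0.74 ± 0.15, adjusted p = 0.337, and 0.67 without replicate 1). CYTC-2, a mitochondrial cytochrome c, read 7.28, 7.41 and 7.26 at 97 kPa and 7.63, 7.89, 7.81 and 8.01 at 50 kPa/NormOx. In CYTC-2 every treated array was above every control, with a Log2 fold-change of 0.52 ± 0.12 (adjusted p = 0.375) with replicate 1 and 0.58 (adjusted p = 0.205) without it. AT1G12800, an RNA-binding protein of the S1 domain class, had a Log2 fold-change of 0.70 (adjusted p = 0.205) without replicate 1. The hydrolase AT5G17670 read 6.49, 6.69 and 6.32 at 97 kPa and 7.37, 7.33 and 7.13 in treated replicates 2 to 4, but 5.76 in replicate 1, and its Log2 fold-change without that array was 0.77 (adjusted p = 0.205).

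The lowest p-values in the lower direction were likewise found for shifts under the fold threshold. AT5G48900, a pectate lyase of the enzymes that cut the pectin of cell walls, read 7.54, 7.70 and 7.80 at 97 kPa and 6.73, 7.11, 6.88 and 7.14 at 50 kPa/NormOx, a Log2 fold-change of -0.71 ± 0.13 (adjusted p = 0.297). AT2G14900, a gibberellin-regulated peptide of the GASA family, read 9.40, 9.38 and 9.41 at 97 kPa and 8.32, 8.64, 8.34 and 8.95 at 50 kPa/NormOx, a Log2 fold-change of -0.83 ± 0.17 (adjusted p = 0.337). AT2G44670, of the FLZ zinc finger family that binds SnRK1 kinases, read 9.31, 9.42 and 9.31 at 97 kPa and 8.51, 8.98, 8.63 and 8.97 at 50 kPa/NormOx, a Log2 fold-change of -0.57 ± 0.11 (adjusted p = 0.337). In all 3 the treated arrays lay below all controls, and the Log2 fold-changes without replicate 1 were -0.63, -0.75 and -0.48. EMB3142, a nucleoporin gene (AT5G51200), had a Log2 fold-change of -0.83 ± 0.15 (adjusted p = 0.297) and WLIM2a, an actin-bundling LIM protein, one of -0.48 ± 0.11 (adjusted p = 0.375), and without replicate 1 these were -0.77 and -0.41. Without replicate 1 the alcohol dehydrogenase-like gene AT1G64710 (-0.64, adjusted p = 0.205), the methyltransferase AT5G04060 (-0.51, adjusted p = 0.205) and SPP (-0.35, adjusted p = 0.205) were also among the 5 with the lowest p in the lower direction.

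**Figure D3:**
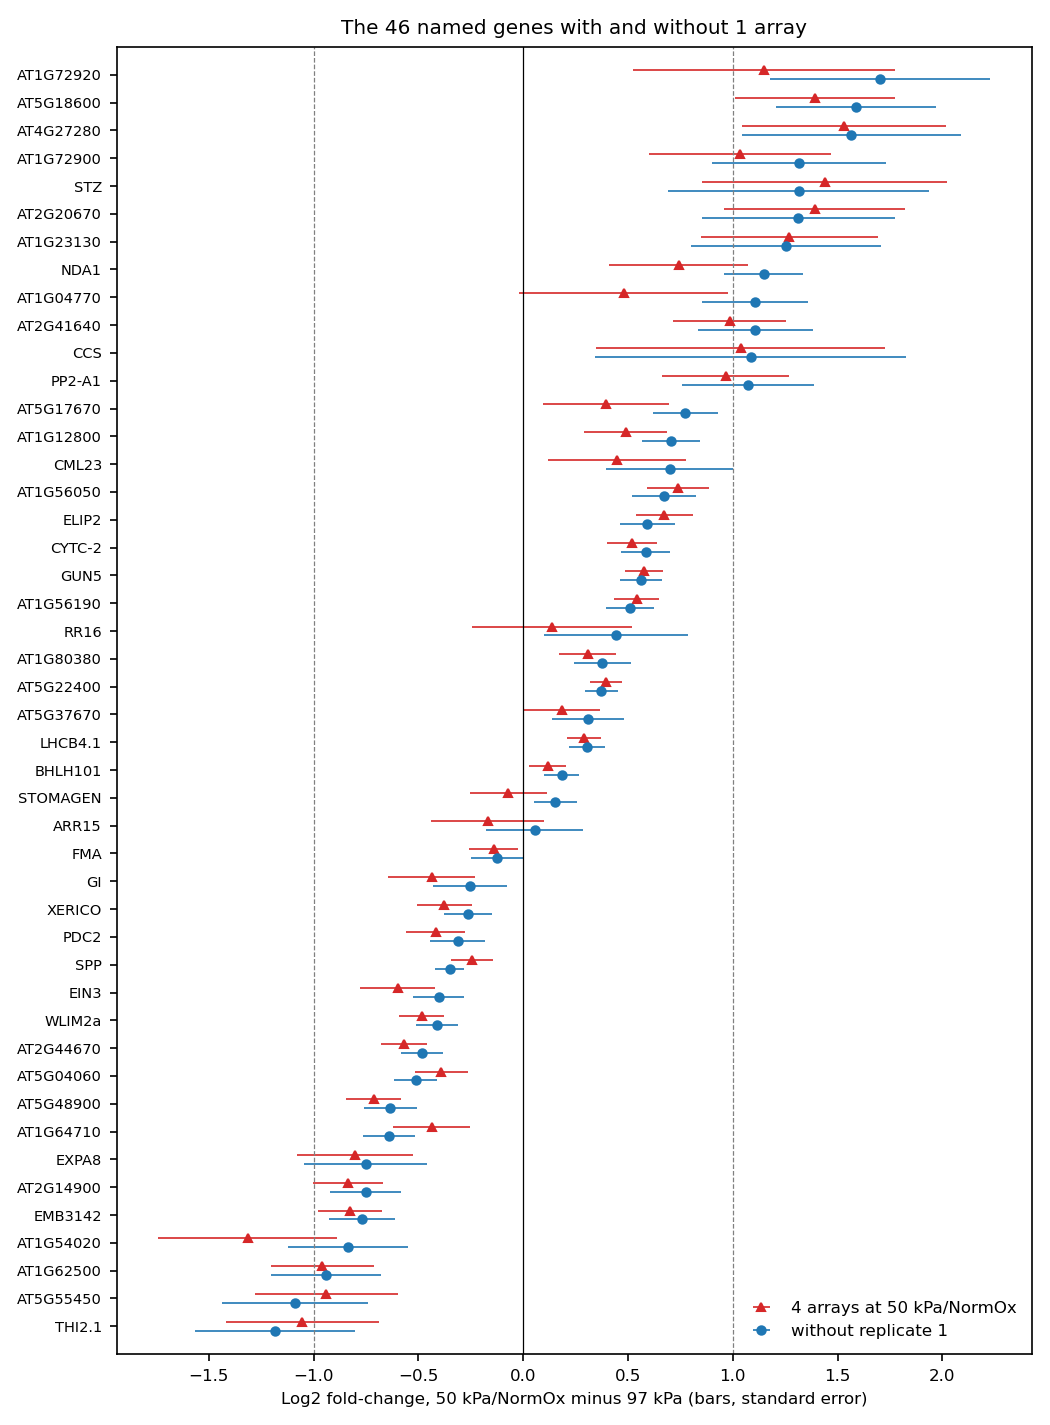
Log2 fold-change of the 46 named genes at 50 kPa/NormOx against 97 kPa, with all 4 treated arrays (red triangles) and without replicate 1 (blue circles). Bars are standard errors from limma and dashed lines mark a Log2 fold-change of 1 in either direction. AT1G04770 moves from 0.48 to 1.11 and AT1G54020 from -1.31 to -0.84, while GUN5 stays at 0.58 and 0.56.

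Gene lists, chosen with earlier results of these data known, were then read by their counts. The platform annotation named probe sets for 84 genes of 19 lists. Of these 14 (16.7%) had an unadjusted p under 0.05, 7 higher and 7 lower, against 5.89% of all probe sets, and 1, the glutaredoxin AT5G18600, passed the threshold. Without replicate 1 there were also 14 with p under 0.05, against 9.66% of all probe sets, and 2 passed the threshold. The median Log2 fold-change of all probe sets was 0.01 and 52.8% were positive. List members named through the tables of the study, which hold genes it called in some comparison, are counted apart and are not independent evidence of a direction.

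No measured gene of the low oxygen response was higher at p under 0.05 at 50 kPa/NormOx. Of 15 members 0 had p under 0.05 in the higher direction and 1 in the lower, against 2.55% and 3.34% of all probe sets, and the median Log2 fold-change was -0.04. The counts were the same without replicate 1, against 5.2% and 4.46% of all probe sets, with a median of -0.12. ADH1, the alcohol dehydrogenase of fermentation, read 5.34, 5.73 and 5.36 at 97 kPa and 5.69, 5.45, 5.38 and 5.37 at 50 kPa/NormOx. Its groups overlapped and the Log2 fold-change was -0.01 (adjusted p = 0.999). The pyruvate decarboxylase PDC2 read 7.16, 7.32 and 7.35 at 97 kPa and 6.55, 6.69, 7.0 and 7.20 at 50 kPa/NormOx, with a Log2 fold-change of -0.42 ± 0.14 (adjusted p = 0.615) and of -0.31 without replicate 1. Lower values were found mainly in 2 of the 4 treated arrays for the wound-responsive family gene AT4G10270, which read 7.45, 7.88 and 8.40 at 97 kPa and 5.97, 7.88, 5.84 and 8.21 at 50 kPa/NormOx (Log2 fold-change -0.94, adjusted p = 0.961). Of 15 more members named by the study, 0 were higher and 1 was lower at p under 0.05, against 2.55% and 3.34% of all probe sets. Without replicate 1 there were 0 and 4, against 5.2% and 4.46%. The 1 lower with all arrays was AT5G39890, a plant cysteine oxidase that senses oxygen for the degradation of hypoxia regulators. It read 9.06, 8.74 and 9.08 at 97 kPa and 8.11, 8.46, 8.71 and 8.53 at 50 kPa/NormOx (Log2 fold-change -0.51, adjusted p = 0.595). Without replicate 1 the sucrose synthase SUS4, which read 5.48, 5.18 and 5.59 at 97 kPa and 4.85, 5.00 and 4.84 in treated replicates 2 to 4, had a Log2 fold-change of -0.52 (adjusted p = 0.35). Its replicate 1 read 5.92, above all controls.

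No measured water deficit gene was higher at p under 0.05, but only 6 of the 36 genes of the list were measured. Of these 0 were higher and 2 lower, against 2.55% and 3.34% of all probe sets. Without replicate 1 there were 0 and 1, against 5.2% and 4.46%. The dehydrin COR47 read 8.63, 8.80 and 9.27 at 97 kPa and 7.81, 8.48, 7.90 and 8.90 at 50 kPa/NormOx (Log2 fold-change -0.63, adjusted p = 0.764), and XERICO, a RING protein that promotes abscisic acid accumulation, had a Log2 fold-change of -0.38 (adjusted p = 0.644). The groups of COR47 overlapped and those of XERICO did not, and without replicate 1 COR47 had p over 0.05 (-0.48). LEA4-5, a protein of late embryogenesis made on drying, read 5.16, 4.03 and 4.76 at 97 kPa and 6.20, 4.02, 4.39 and 3.99 at 50 kPa/NormOx, high in replicate 1 alone. Of the 4 stomatal genes measured none had p under 0.05 in either fit, and STOMAGEN, a peptide that promotes stomata, had a Log2 fold-change of -0.07 (adjusted p = 0.999) that turned to 0.15 (adjusted p = 0.616) without replicate 1. FMA, a regulator of guard cell identity, had a Log2 fold-change of -0.14 (adjusted p = 0.999).

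Photosynthesis and photorespiration genes leaned upwards by small amounts, but only 8 of 43 and 3 of 12 genes of the lists were measured. Of 8 nuclear photosynthesis probe sets 3 were higher at p under 0.05 and 0 lower, against 2.55% and 3.34% of all probe sets. In all 7 were positive (87.5%, against 52.8% of all probe sets) and the median Log2 fold-change was 0.15. The 3 with p under 0.05 all encode CP29, a minor antenna of photosystem II. LHCB4.1 read 11.79, 11.77 and 11.98 at 97 kPa and 12.09, 12.08, 12.16 and 12.21 at 50 kPa/NormOx, with a Log2 fold-change of 0.29 ± 0.08 (adjusted p = 0.499). LHCB4.3 read 9.47, 9.47 and 9.40 at 97 kPa and 9.89, 9.90, 10.50 and 9.60 at 50 kPa/NormOx, with a Log2 fold-change of 0.53 ± 0.18 (adjusted p = 0.611), and LHCB4.2 had 0.29 (adjusted p = 0.84). Without replicate 1 there were 2 higher, against 5.2% of all probe sets, and the median was 0.18. The Log2 fold-changes were then 0.31 for LHCB4.1, 0.56 for LHCB4.3 and 0.25 for LHCB4.2, the last with p over 0.05. In LHCB4.1 and LHCB4.3 every treated array was above every control. Of 5 more photosynthesis members named by the study, 0 had p under 0.05, or 1, higher, without replicate 1. Their medians were 0.12 and 0.16. Of the 3 photorespiration genes, the glycerate kinase AT1G80380 had a Log2 fold-change of 0.31 (adjusted p = 0.795), and the median was 0.31, or 0.38 and 0.35 without replicate 1. Such small steps lie well under the fold threshold. Set against the control mean, the photosynthesis list median was 0.08 to 0.22 in the treated arrays and -0.16 to 0.16 in the controls. For photorespiration these ranges were 0.10 to 0.46 and -0.19 to 0.25, so in both lists the groups overlapped. In the shoot arrays of the other atmospheres the medians ranged from -0.13 to 0.27 and from -0.28 to 0.42.

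With 7 arrays the class III glutaredoxins were the one list with a gene past the threshold. That gene, AT5G18600, was also called by the study in this comparison. The lists were chosen with earlier results of these data known, so its place in a list is not independent evidence. Of 16 family members 13 were measured, 12 of the 13 (92.3%, against 52.8% of all probe sets) had a positive Log2 fold-change, and the median was 0.13. At p under 0.05 2 were higher and 0 lower, against 2.55% and 3.34% of all probe sets. These counts were the same without replicate 1, against 5.2% and 4.46%, with a median of 0.11. Set against the control mean, the list median was 0.05 to 0.20 in the treated arrays and -0.04 to 0.09 in the controls. In the shoot arrays of the other atmospheres it was 0.03 to 0.26, also above 0 throughout. Whether the lean is particular to 50 kPa/NormOx was not tested. Beside AT5G18600, AT2G30540 read 4.89, 4.72 and 4.86 at 97 kPa and 5.23, 5.34, 5.12 and 5.38 at 50 kPa/NormOx, with a Log2 fold-change of 0.44 ± 0.16 (adjusted p = 0.681). GRX480, which binds TGA transcription factors, read 4.49, 5.06 and 5.45 at 97 kPa and 5.20, 5.64, 5.06 and 6.43 at 50 kPa/NormOx (Log2 fold-change 0.59, adjusted p = 0.944). AT1G06830 had a Log2 fold-change of 0.42 (adjusted p = 0.927). Most of the other members were dim, and the neighbouring genes AT4G15660, AT4G15680, AT4G15690 and AT4G15700 are near-identical copies whose probes may share signal, so that they do not count as separate evidence.

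Of the 3 calcium and mechanical response genes measured, 0 had p under 0.05 with all arrays. The calmodulin-like genes CML38 and CML23 had Log2 fold-changes of 0.49 (adjusted p = 0.999) and 0.45 (adjusted p = 0.998), and the median of 3 touch genes was 0.45. Without replicate 1 the 1 gene with p under 0.05 was CML23, with a Log2 fold-change of 0.70 (adjusted p = 0.488), and the median was 0.70. In the reactive oxygen list, STZ, the zinc finger repressor also called ZAT10, read 6.55, 5.67 and 7.71 at 97 kPa and 8.45, 7.84, 8.0 and 8.04 at 50 kPa/NormOx. Its treated arrays were all above the controls, of which replicate 3 was again the highest, and the Log2 fold-change was 1.44 ± 0.58 (SE, adjusted p = 0.759), or 1.31 (adjusted p = 0.519) without replicate 1.

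The direction of the wall-loosening list depended on replicate 1. Of 16 expansins and wall-loosening enzymes 0 were higher and 1 lower (6.25%) at p under 0.05, against 2.55% and 3.34% of all probe sets. In all 8 were positive, with a median Log2 fold-change of 0.00. Without replicate 1 there were 1 higher and 1 lower, against 5.2% and 4.46% of all probe sets. Then 5 were positive (31.2%, against 50.5% of all probe sets) and the median was -0.14. The expansin EXPA8 read 8.88, 7.82 and 8.63 at 97 kPa and 7.49, 7.64, 7.67 and 7.77 at 50 kPa/NormOx, with a Log2 fold-change of -0.80 ± 0.28 (adjusted p = 0.625). EXPA1, named through the study, read 8.57, 8.0 and 8.59 at 97 kPa and 7.27, 7.71, 7.63 and 8.11 at 50 kPa/NormOx (Log2 fold-change -0.71 ± 0.21, adjusted p = 0.535). For EXPA8 the groups did not overlap, and for EXPA1 treated replicate 4 reached into the controls. AT1G62500, a proline-rich lipid transfer protein that links wall and membrane, is of a separate list of lipid transfer and wall linker genes. It read 9.29, 9.43 and 8.66 at 97 kPa and 8.12, 8.29, 7.92 and 8.35 at 50 kPa/NormOx. The Log2 fold-change was -0.96 ± 0.25 (adjusted p = 0.464), just under the fold threshold. Of the 3 measured members of that list 2 were positive, with a median of 0.24, or 0.07 without replicate 1. For 2 more members named by the study, neither with p under 0.05, the median was 1.03, or 0.87 without replicate 1. Without replicate 1 the Log2 fold-changes were -0.75 for EXPA8, -0.57 for EXPA1 and -0.94 for AT1G62500.

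The hormone and clock lists were thinly measured. EIN3, the master transcription factor of ethylene signalling, read 8.03, 7.68 and 7.87 at 97 kPa and 6.67, 7.26, 7.45 and 7.65 at 50 kPa/NormOx. All treated arrays were below all controls, the last of them barely so, and the Log2 fold-change was -0.60 ± 0.18 (SE, adjusted p = 0.533) with replicate 1 and -0.40 (adjusted p = 0.318) without. GI, a clock gene, had a Log2 fold-change of -0.44 (adjusted p = 0.858) and of -0.25 without replicate 1. Of the cytokinin response regulators ARR15 and RR16 neither had p under 0.05, and the sign of ARR15 turned from -0.17 to 0.05 without replicate 1. The heat shock list had 2 measured members, neither with p under 0.05, of which AT5G37670 had a Log2 fold-change of 0.18. In the copper and iron list none of 3 had p under 0.05, the copper chaperone CCS read 5.53, 5.33 and 6.06 at 97 kPa and 6.54, 7.13, 5.69 and 7.35 at 50 kPa/NormOx (Log2 fold-change 1.04 ± 0.69, adjusted p = 0.971), and the iron regulator BHLH101 had a Log2 fold-change of 0.12 (adjusted p = 0.999). Without replicate 1 BHLH101 had p under 0.05, with 0.18 (adjusted p = 0.501). Aquaporin, salicylate and nitrate genes had no probe set with a name from the platform annotation.

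Genes of jasmonate synthesis had their names only through the tables of the study. LOX2, a lipoxygenase of an early step of jasmonate synthesis in chloroplasts, read 9.61, 9.90 and 9.65 at 97 kPa and 10.32, 10.25, 10.83 and 10.39 at 50 kPa/NormOx. Every treated array was above every control, with a Log2 fold-change of 0.73 ± 0.16 (adjusted p = 0.375) and of 0.77 without replicate 1. AOS and AOC1, which act after it, had Log2 fold-changes of 0.47 (adjusted p = 0.926) and 0.81 (adjusted p = 0.862). Without replicate 1 these were 0.71 (adjusted p = 0.314) and 0.99 (adjusted p = 0.458). In both genes the groups overlapped with all arrays. Of 5 list members named by the study 1 was higher and 0 lower at p under 0.05, with a median of 0.47. The platform annotation named 2 of the 27 genes of the list. Of these 0 were higher and 1, THI2.1 (-1.05), was lower, with a median of -0.47. Of all probe sets 2.55% were higher and 3.34% lower.

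3 lists were added after their genes had been seen among the lowest p-values, and their counts are descriptions. Of 12 genes of plastid ribosomes and chlorophyll synthesis 4 were higher (33.3%, against 2.55% of all probe sets) and 0 lower at p under 0.05, with a median of 0.13. The counts were the same without replicate 1, where 5.2% of all probe sets were higher, with a median of 0.17. HEME1, a uroporphyrinogen decarboxylase of the tetrapyrrole pathway, read 7.76, 7.73 and 7.68 at 97 kPa and 8.29, 8.05, 8.41 and 8.08 at 50 kPa/NormOx, a Log2 fold-change of 0.48 ± 0.13 (adjusted p = 0.472) with no overlap between groups. Of 23 pectate lyase probe sets 0 were higher and 5 lower (21.7%, against 3.34% of all probe sets), with a median of -0.11. Without replicate 1 there were 3 lower (13.0%, against 4.46% of all probe sets), with a median of -0.13. Beside AT5G48900 these were AT3G07010 (-0.61, adjusted p = 0.759), AT1G04680 (-0.43, adjusted p = 0.764), AT4G24780 (-0.39, adjusted p = 0.839) and AT3G53190 (-0.30, adjusted p = 0.833), of which AT3G07010 (-0.48) and AT1G04680 (-0.37) had p over 0.05 without replicate 1. Of 6 GASA probe sets 1, AT2G14900, was lower and 0 were higher in both fits.

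**Figure D4:**
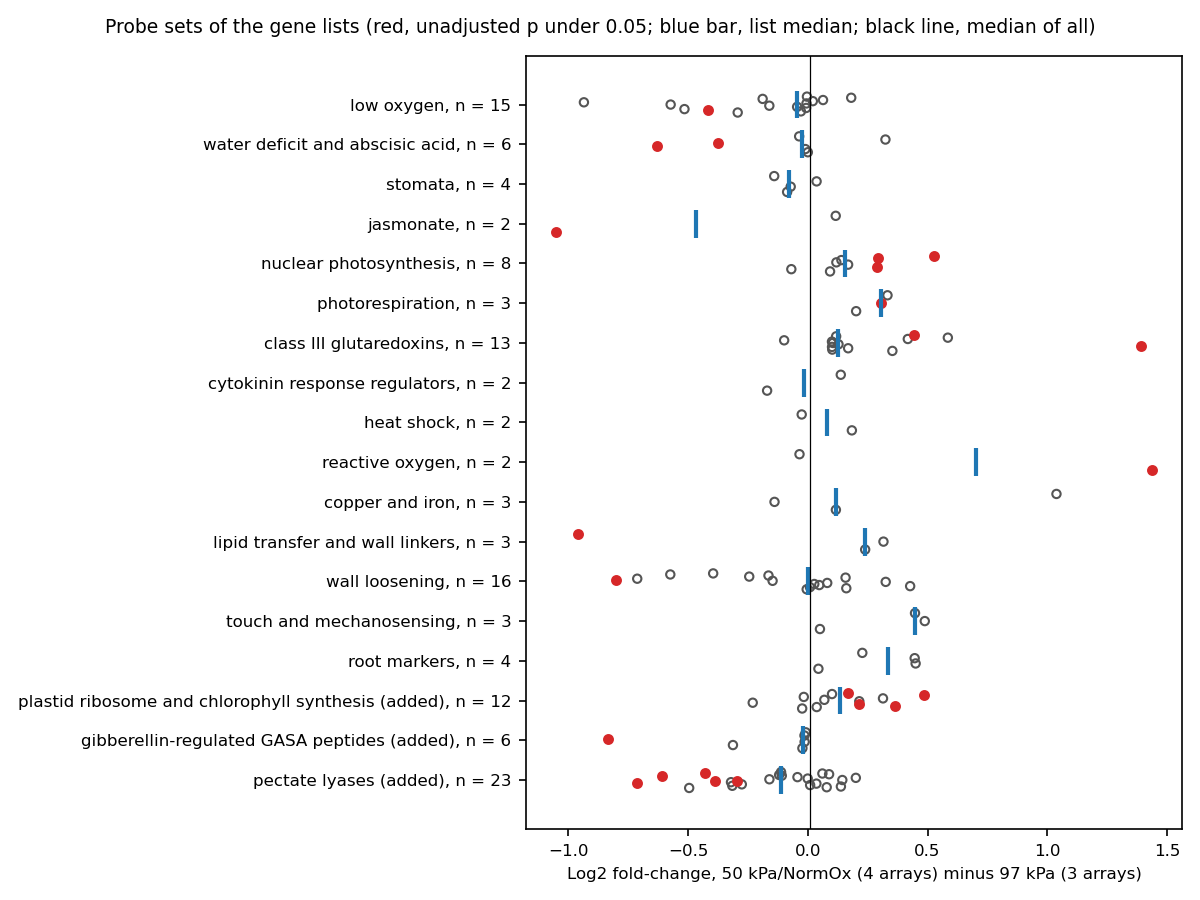
Log2 fold-change at 50 kPa/NormOx against 97 kPa of each probe set in the gene lists, with all 7 arrays. Red points have an unadjusted p under 0.05 by limma, open points do not, blue bars are list medians and the black line is the median of all probe sets (0.01). The glutaredoxin at 1.39 and STZ at 1.44 lie farthest to the right, and the pectate lyases with p under 0.05 all lie left of the line.

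The same genes were then read in the neighbouring shoot atmospheres, 50 kPa with no added oxygen and 25 kPa/NormOx, with 3 arrays each. All of these comparisons share the 3 arrays at 97 kPa, so the values are given side by side. AT5G18600 had Log2 fold-changes of 1.39 at 50 kPa/NormOx, 0.72 (unadjusted p over 0.05) at 50 kPa and 0.48 (unadjusted p over 0.05) at 25 kPa/NormOx. AT4G27280 had 1.53, 0.19 (unadjusted p over 0.05) and 1.76 (unadjusted p under 0.01), and STZ 1.44, 0.23 (unadjusted p over 0.05) and 1.5 (unadjusted p under 0.05). In these 2 genes the atmospheres with oxygen added had the higher values. AT2G20670 had 1.39, -0.01 (unadjusted p over 0.05) and 0.92 (unadjusted p over 0.05). THI2.1 had -1.05, -1.55 (unadjusted p under 0.01) and -0.87 (unadjusted p under 0.05), below 0 in these 3 atmospheres.

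Direct contrasts within the fit, which do not use the controls, tested these differences. The genes were chosen with the same 50 kPa/NormOx arrays, so that some differences in their direction were to be found by choice alone. Against 50 kPa, 3 of the 13 named genes past the threshold had p under 0.05, beside 7.48% of all probe sets. These were AT4G27280 (1.34 ± 0.49, SE, unadjusted p under 0.05), AT2G20670 (1.4 ± 0.43, unadjusted p under 0.01) and AT5G55450 (-1.19 ± 0.34, unadjusted p under 0.01). Without replicate 1 there were 6, beside 5.91% of all probe sets, with AT5G18600, NDA1 and AT1G04770 added. STZ had 1.21 ± 0.58 (unadjusted p over 0.05). GUN5 was also higher than at 50 kPa, by 0.41 ± 0.09 (unadjusted p under 0.001), and AT2G44670 lower, by -0.65 ± 0.11 (unadjusted p under 0.001). Among all probe sets 18 passed the threshold between these 2 atmospheres with all arrays (0.0795%) and 8 without replicate 1 (0.0353%). By limma 0 had an adjusted p under 0.05 with all arrays and 2 (0.00883%) without replicate 1.

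Against 25 kPa/NormOx, where oxygen is the same and the pressure lower still, 2 of the 13 had p under 0.05, beside 2.85% of all probe sets. AT5G18600 was higher at 50 kPa/NormOx by 0.91 ± 0.38 (SE, unadjusted p under 0.05) and AT1G54020 lower by -0.95 ± 0.43 (unadjusted p under 0.05). Without replicate 1 the 2 were AT5G18600 and NDA1. No probe set passed the threshold between the 2 atmospheres by limma, and 645 had an unadjusted p under 0.05, or 648 (2.86%) without replicate 1. AT4G27280 differed by -0.23 ± 0.49 (unadjusted p over 0.05) and STZ by -0.06 ± 0.58 (unadjusted p over 0.05), intervals wide enough to hold a change near the threshold in size.

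**Figure D5:**
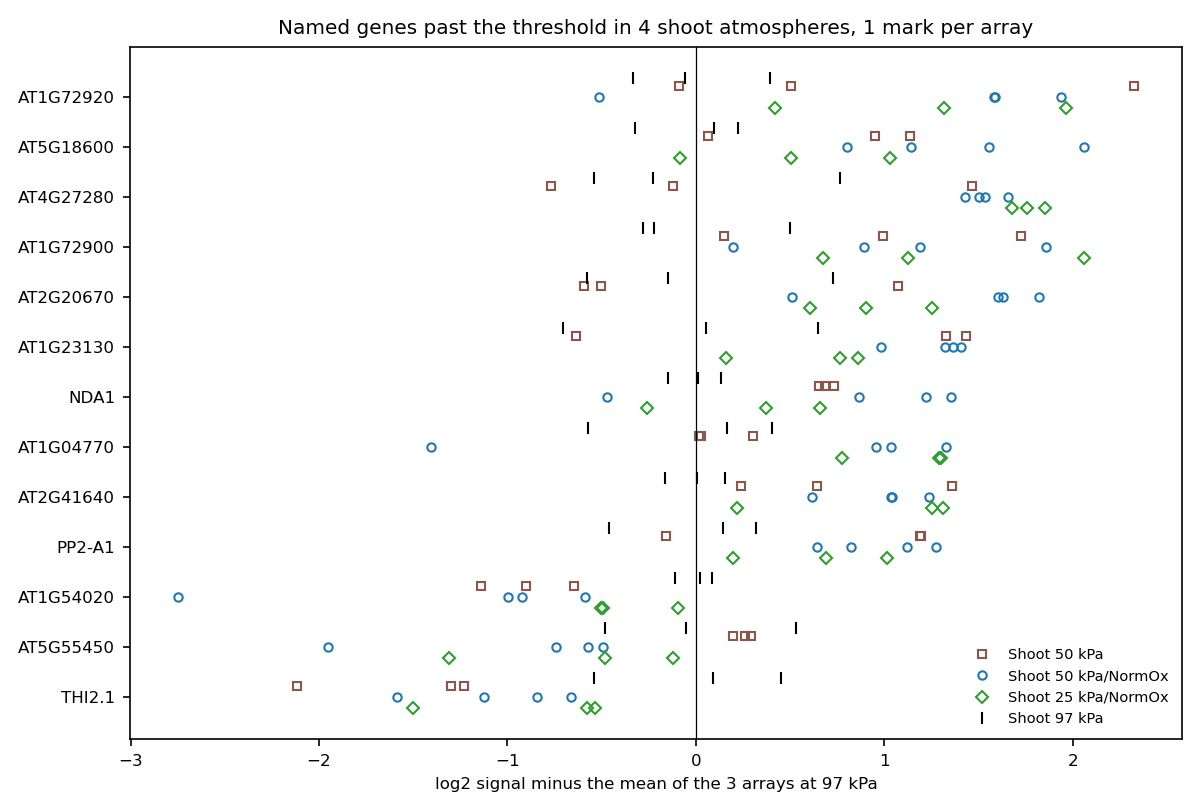
Log2 RMA signal of the 13 named genes past the threshold, minus the mean of the 3 arrays at 97 kPa, in 4 shoot atmospheres with 1 mark per array. Black ticks are 97 kPa, brown squares 50 kPa, blue circles 50 kPa/NormOx and green diamonds 25 kPa/NormOx. In AT4G27280 all arrays with oxygen added lie to the right of the controls, while the means of THI2.1 lie left of zero in the 3 atmospheres of reduced pressure shown.

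Roots in the same atmosphere had 2 arrays, set against 3 root controls in a separate limma fit. None of the 13 genes had p under 0.05 there, beside 6.88% of all probe sets, or 3.42% without root 97 kPa replicate 1, and the root values of AT5G18600 (0.15, unadjusted p over 0.05) and AT4G27280 (0.69, unadjusted p over 0.05) were smaller than in shoots. The difference between organs was not tested. EXPA8 was low in roots as well, with a Log2 fold-change of -0.56 (unadjusted p under 0.01), ELIP2 high with 0.63 (unadjusted p under 0.05), and PDC2 had 0.75 (unadjusted p under 0.05) in roots. Without root 97 kPa replicate 1 the value of PDC2 was 0.35 (unadjusted p over 0.05), while those of EXPA8 (-0.68) and ELIP2 (0.70) still had p under 0.05.

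Plastid and mitochondrial genes were left out of the counts, as in the study. Among their 101 probe sets 35 were higher and 66 lower, where 52.8% of the probe sets tested were positive. Only 2 of the 101 had p under 0.05, beside 5.89% of the probe sets tested. In all 1 would have passed the threshold. That was psbT, a small subunit of photosystem II, which read 9.86, 10.14 and 9.03 at 97 kPa and 7.77, 7.18, 9.33 and 6.48 at 50 kPa/NormOx. The groups overlapped through treated replicate 3, and the Log2 fold-change was -1.99 ± 0.57 (SE, unadjusted p under 0.01), or -2.01 without replicate 1.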

How the data were processed

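The authors deposited log2 expression values from RMA normalization of ATH1 arrays, made separately for roots and shoots, beside a primary analysis in Affymetrix Expression Console; versions and probe annotation are not given in the sources used here. Arrays have no read depth, and their number limits the precision. Groups were taken from the sample titles. After 101 probe sets of organelle genes were removed, R 4.3.3 with limma 3.58.1 (lmFit, eBayes) was fitted to 18 shoot arrays with 1 mean per atmosphere, and to 15 root arrays apart. Tests were two-sided. Of 22645 probe sets, 13421 had 1 gene in the platform annotation, 234 were named from tables of the study and 8990 had no single name. Probe sets were counted as genes.

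Named were all genes past the threshold with or without 50 kPa/NormOx replicate 1, the 5 lowest p-values per direction in each fit, and the lowest of each list; 1 of these genes is not reported here. The members and lists were chosen with earlier results of these data known. The fit was tested on simulated data. Alternatives covered left-out arrays, array weights, a replicate block, variance priors, a minimum signal, scaling and organelle genes.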

Additional observations from a re-analysis of the deposited data

Results flagged for a closer look

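Among the named genes, 5 of 46 had 1 of the 4 arrays at 50 kPa/NormOx far from the other 3, by Dixon's criterion for groups of 4, which chance meets in about 1 of 20 groups. In 4 of the 5 that array was replicate 1. It read 5.43 for AT1G04770, 4.72 for the TIR-NBS gene AT1G72920, 5.76 for the hydrolase AT5G17670 and 3.90 for the cytokinin response regulator ARR15, each below the other treated arrays. In the 5th, AT2G20670, replicate 3 stood apart with 6.14. Over all probe sets tested 2985 (13.2%) met the criterion, and replicate 1 was the farthest array in 2683 of them (89.9%), against 89 to 109 for each of the other 3 arrays. The mean correlation of replicate 1 with the other shoot arrays (0.898) was likewise apart from those of its group. The cause was not tested.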

How the results depend on the processing

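With 11 probe sets past the threshold, leaving out 1 array gave 4 to 21, and leaving out 50 kPa/NormOx replicate 1 gave 17. Array weights, which gave that array a weight of 0.061, gave 16 (6 higher, 10 lower), the fit of the 7 arrays alone 12, trend and robust variance priors 12, and a minimum mean signal of 5 gave 11 of 11995. The Benjamini-Hochberg count of 0 became 1 without 97 kPa replicate 2 (range over single arrays 0 to 1) and 2 with array weights. Of the 5 named genes past the threshold, 0 to 4 remained when 1 array was left out (2 without replicate 1), 3 in the fit of the 7 arrays alone and 1 with array weights. The lists held 14 members with p under 0.05, 10 to 16 when 1 array was left out and 21 with array weights. Chosen after seeing the data, the fit without both first replicates gave 8 past the threshold and kept 1 of the 5, and array weights without replicate 1 gave 27, of which 7 were higher, with 31 past Benjamini-Hochberg, 1 of the 5 and 23 list members. For these settings the cause was not tested.

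Pairing of the arrays by replicate number was mixed. Deviations from the group means correlated between treated and control arrays of the same number at 0.64 (1), 0.55 (2) and -0.07 (3). Across numbers, treated replicate 1 correlated at -0.61 with control replicate 2, and treated replicate 2 at -0.56 with control replicate 1. Treated replicate 4, which has no control of its number, correlated at 0.53 with control replicate 2. Whether arrays of the same number shared a batch was not tested. With the replicate block 13 passed the threshold (5 higher, 8 lower) and 1 of the 5 named genes remained, AT4G27280, while AT5G18600 was lost. Between 50 kPa/NormOx and 50 kPa the count of 18 was 8 without replicate 1 and 59 with the replicate block. Between 50 kPa/NormOx and 25 kPa/NormOx it was 0 without replicate 1 and 2 with the replicate block.

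Of the 46 named genes, 33 to 46 kept direction and side of the threshold under each planned setting, where a minimum mean signal left 40 to compare and all 40 did. 3 genes changed sign, with the lowest and highest values over single left-out arrays given first: STOMAGEN (-0.22 to 0.15, 0.032 with array weights and, among the added settings, 0.15 without both first replicates and 0.030 with weights and no replicate 1), ARR15 (-0.30 to 0.055, 0.19 with array weights and 0.22 with weights and no replicate 1) and RR16 (-0.034 to 0.44, and -0.0061 with the replicate block), none of which had p under 0.05 with all arrays. Root values without root 97 kPa replicate 1 also gave 0 of the 13 genes with p under 0.05. Array values have no detection calls, and dim genes near 4 carry compressed changes.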
